A study of Mus musculus with 12 samples.

Results

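Two-pore potassium channels were compared in hippocampus and ileum of mice with and without an enhancer of Csf1r, the gene of the receptor that keeps microglia and many other macrophages alive. The 9 genes described are Kcnk1, Kcnk2, Kcnk3, Kcnk5, Kcnk6, Kcnk9, Kcnk10, Kcnk12 and Kcnk13, of 14 two-pore channel genes with a transcript cluster of their own, among 18820 such genes on the array. They were found by exact gene symbol, and each had 1 transcript cluster. The set was chosen by measured values of these arrays, with the genotype difference of Kcnk6 in the hippocampus in view, so the values of that contrast are a description and carry no p for these genes.

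Hippocampus, and Peyer's patches with the mucosa around them from the ileum, called ileum here, came from mice aged 6 weeks on a C57BL/6J/CBA background, perfused with saline. By their labels the groups were hippocampus FIRE +/+ (2 male, 1 female), hippocampus FIRE -/- (1 male, 2 female), ileum FIRE +/+ (2 male, 1 female) and ileum FIRE -/- (1 male, 2 female), with 3 arrays in each and 12 in all. FIRE is the fms-intronic regulatory element of Csf1r. The FIRE -/- mice, which the study calls Csf1r ΔFIRE/ΔFIRE, lack it in every cell and descend from 1 founder male made by CRISPR/Cas9. No other allele and no treatment was listed for any group, and the labels do not tie the hippocampus of a mouse to its ileum. The sex label of 1 array went against its sex-linked transcripts. On B09, a FIRE -/- hippocampus with the label female, the Y-linked Uty was at 6.42, within the 6.38 to 7.03 of the 6 male arrays and above the 2.41 to 2.83 of the other 5 female arrays. Values without this array stand beside the result for Kcnk6. Signals are log2 values from RMA, a method that removes background, brings the arrays to a common distribution and joins the probes of each transcript cluster into a single value. Array medians over all 35556 clusters, named or not, lay between 4.29 and 4.46, the median of the cluster means over the 21218 clusters with 1 gene symbol was 5.60 in the hippocampus and 5.47 in the ileum, and the number of arrays limits the precision. Values of different genes come from different probes, so only 1 gene at a time was compared between groups.

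Two-pore channels are dimers in which each subunit brings a pair of pore loops, and they carry the background potassium current that sets the resting potential of a cell. The family falls into TWIK channels (Kcnk1, Kcnk6), TREK channels opened by stretch, heat and fatty acids (Kcnk2, Kcnk10), TASK channels sensitive to pH (Kcnk3, Kcnk9 and the more distant Kcnk5) and THIK channels inhibited by halothane (Kcnk12, Kcnk13). In the brain most of these are studied in neurons and astrocytes, THIK-1 (Kcnk13) is known as the resting potassium channel of microglia, and TWIK-2 (Kcnk6) is known as a potassium efflux route of macrophages upstream of the NLRP3 inflammasome.

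RefSeq promoter windows (GRCm38.p6) of 300 bases, from 250 before to 50 after a transcription start, were found for 6 of the 9 genes, 10 windows in all, and for Kcnk3, Kcnk6 and Kcnk9 none was found in the table. They were searched on both strands for GAGGAA, the purine-rich core bound by PU.1, the master factor of the macrophage lineage, and for the longer GAGGAAGT, which contains it. GAGGAA was in 6 of the 10 windows, where 28.3% of 32851 windows of all genes hold it. By gene it was in 5 of the 6 (Kcnk1, Kcnk2, Kcnk10, Kcnk12 and Kcnk13). Kcnk2 has 4 windows and Kcnk10 has 2, and no share over all genes was computed to set beside this count. GAGGAAGT was in 0 of the 10, against 3.20% of all windows. A pair of windows is printed because these genes bear on the question of which channels are microglial, with Kcnk13 the channel named for microglia and Kcnk5 the member with the largest excess in the gut. The Kcnk13 window lies at chr12:99964249-99964548 (+ strand) and the Kcnk5 window at chr14:20181733-20182032 (- strand), and capitals mark GAGGAA.
Kcnk13: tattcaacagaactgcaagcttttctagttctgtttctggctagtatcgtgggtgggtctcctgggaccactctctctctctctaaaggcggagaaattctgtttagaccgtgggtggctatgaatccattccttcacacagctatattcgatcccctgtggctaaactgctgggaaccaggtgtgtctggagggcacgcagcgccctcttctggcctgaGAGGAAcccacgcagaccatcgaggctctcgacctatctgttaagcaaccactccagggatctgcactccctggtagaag
Kcnk5: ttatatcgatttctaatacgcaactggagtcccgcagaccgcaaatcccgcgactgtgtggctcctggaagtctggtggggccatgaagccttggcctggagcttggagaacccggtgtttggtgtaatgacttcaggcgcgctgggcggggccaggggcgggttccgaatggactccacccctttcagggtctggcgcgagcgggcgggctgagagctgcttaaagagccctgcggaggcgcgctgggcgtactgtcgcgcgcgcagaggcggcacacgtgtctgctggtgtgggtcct
The letters of a match are a description of the sequence, and binding was not measured here.

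The loss of microglial transcript sets the background for the hippocampus. Of 17 measured microglial marker genes, limma called 15 lower in FIRE -/- hippocampus, where it called 0.448% of all 21218 clusters tested. All 17 were lower, with log2 differences from -4.63 to -0.84. Their arrays did not overlap between genotypes for all 17, where 9.66% of all clusters did not overlap. Their mean signal per array was 6.54 to 6.81 in FIRE +/+ and 3.79 to 4.03 in FIRE -/- hippocampus. Csf1r itself fell from 8.27 ± 0.10 to 3.64 ± 0.06 (SD, n = 3 each). None of 9 neuron, 7 astrocyte or 4 measured oligodendrocyte marker genes was called, with median log2 differences of 0.03, 0.02 and 0.03. Of the astrocyte genes 2 did not overlap, Gfap, the filament gene of astrocytes, at 0.56 (95% confidence interval 0.31 to 0.80, limma adjusted p = 0.142) and Aldoc at -0.06. Gfap read 8.99, 9.28 and 9.13 in FIRE +/+ and 9.59, 9.77 and 9.70 in FIRE -/- hippocampus. The 6 smooth muscle markers had differences of 0.29 to 0.82 with a median of 0.45, none called and each with overlap, and their mean signal was 5.34 to 6.01 in FIRE +/+ and 5.55 to 6.95 in FIRE -/- hippocampus. The part of these markers in the channel values was not tested. In bulk tissue, fewer cells of a type and less RNA per cell cannot be told apart.

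**Figure D1:**
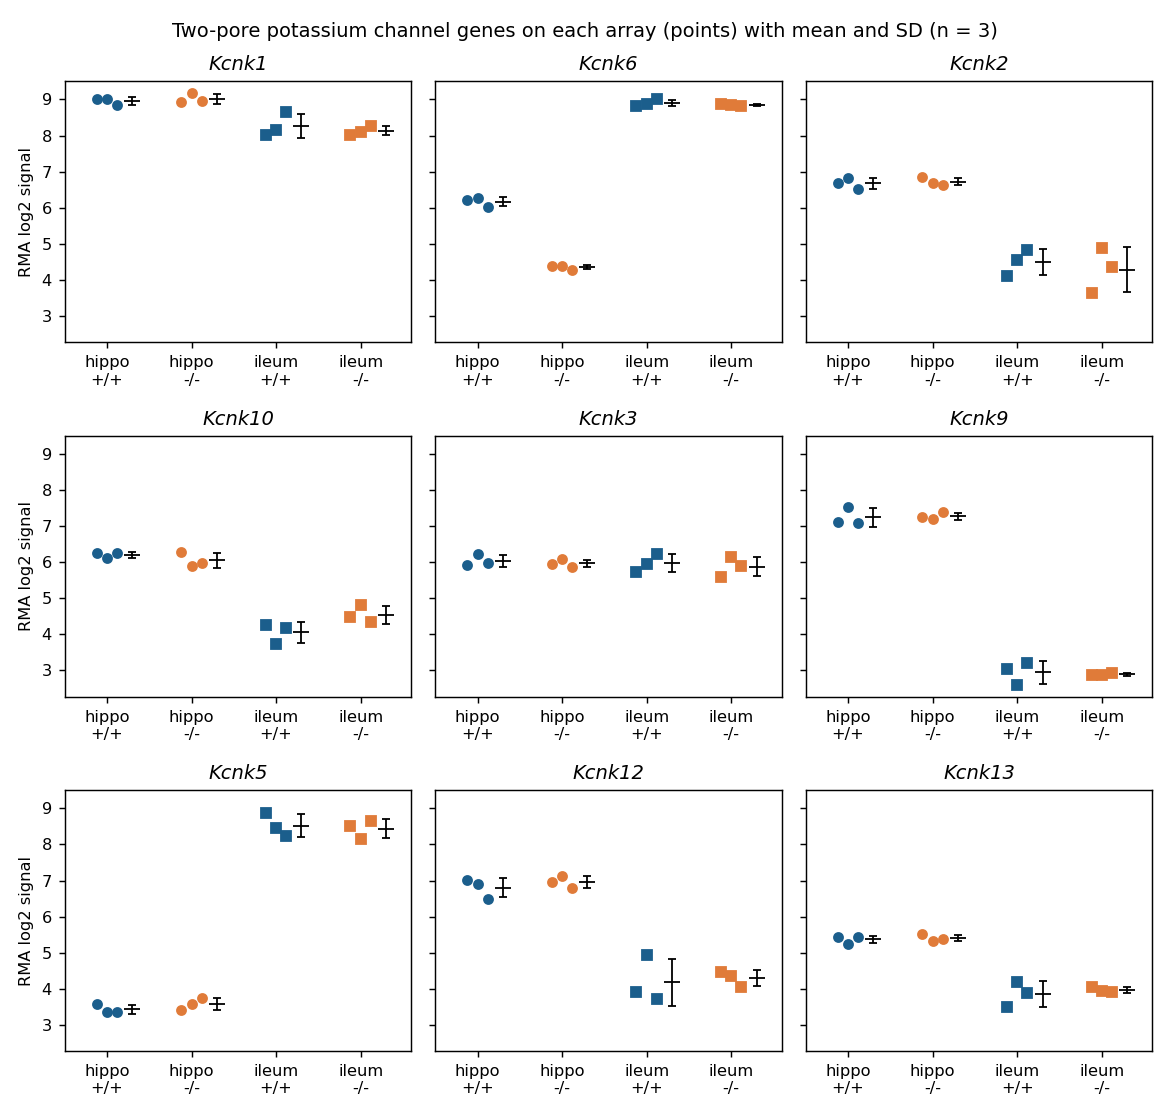
RMA log2 signal (y axis) of the 9 channel genes on each array, by tissue and FIRE genotype (x axis); circles are hippocampus, squares ileum, blue FIRE +/+, orange FIRE -/-, and black bars the mean and SD of 3 arrays. Kcnk6 in the hippocampus drops from 6.17 to 4.34 while Kcnk13 stays at 5.37 and 5.41, and Kcnk5 and Kcnk6 are the genes higher in the ileum.

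Of the channels, Kcnk6 had the largest fall in FIRE -/- hippocampus, and its signal in the ileum was close in both genotypes. Kcnk6, which encodes TWIK-2, a channel of the plasma membrane and of endosomes and lysosomes, read 6.22, 6.26 and 6.02 on the FIRE +/+ hippocampus arrays and 4.37, 4.38 and 4.28 on the FIRE -/- arrays. Every FIRE -/- array was below every FIRE +/+ array, and the last values are near the array medians. The codes of the FIRE +/+ hippocampus arrays end in 07, as does that of H07, the FIRE -/- array at 4.28. Those of the FIRE -/- arrays A09 and B09 end in 09, so genotype and array series can be told apart only in part. The log2 difference was -1.83 (standard error 0.10, 95% confidence interval -2.05 to -1.60), 3.54-fold lower. Without array B09 it was -1.84. By size it ranked at place 34 from the lowest of the 21218 differences. Over all clusters limma called 0.448%, 95 in number, each of them lower. A call for the channels is left out here, as the set was chosen with this contrast in view. The microglial list above moved in the same arrays, and the part of microglia in the Kcnk6 difference was not tested.

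Kcnk6 in the ileum read 8.82, 8.88 and 8.9998 in FIRE +/+ and 8.86, 8.83 and 8.81 in FIRE -/- mice. The genotypes overlapped, and the log2 difference was -0.06 (95% confidence interval -0.30 to 0.17, limma adjusted p = 0.999). The interval leaves room for a fall of at most 0.30, where the hippocampus difference was -1.83. The mean signal of 11 intestinal macrophage markers was 5.68 to 6.29 in FIRE +/+ and 5.61 to 6.33 in FIRE -/- ileum, with differences from -0.71 to 0.46. Limma called 0 of the 11, where it called 0% of all clusters. The lowest of them was Csf1r, at 7.66 ± 0.44 in FIRE +/+ and 6.94 ± 0.55 in FIRE -/- ileum (SD, n = 3 each; 95% confidence interval of the difference -1.47 to 0.05). The genotype difference of Kcnk6 in the hippocampus exceeded that in the ileum by -1.76 on the log2 scale (95% confidence interval -2.05 to -1.48), and Kcnk6 was the 1 channel called for this difference of differences, in which 0.0895% of all clusters were called. That contrast includes the hippocampus values for which the gene was chosen.

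The levels of Kcnk6 therefore ran from FIRE -/- hippocampus (4.34 ± 0.05) through FIRE +/+ hippocampus (6.17 ± 0.13) to FIRE -/- ileum (8.84 ± 0.02) and FIRE +/+ ileum (8.90 ± 0.09; SD, n = 3 each). The neighbours in this order were further apart than their spread, except the ileum groups, whose arrays overlapped. Hippocampus was below ileum by 2.73 in FIRE +/+ (95% confidence interval of hippocampus minus ileum -3.00 to -2.46) and by 4.49 in FIRE -/- mice (-4.69 to -4.29). The FIRE -/- value was -4.46 on the arrays whose code ends in 09 alone, a series that holds both tissues.

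The genes around Kcnk6 did not share its difference. Of the 8 nearest RefSeq genes, 7 had a cluster of their own (Spred3, Ggn, Psmd8, Catsperg1, Yif1b, Spint2 and Ppp1r14a). Their hippocampus differences lay between -0.10 and 0.17, none of them called (limma adjusted p = 0.992 for each). With 0.448% of all clusters called in this contrast, the lack of a call is near the background.

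Kcnk1, the gene of TWIK-1, a channel of the same subfamily, read 9.02, 9.002 and 8.84 in FIRE +/+ hippocampus and 8.92, 9.18 and 8.95 in FIRE -/- hippocampus. The genotypes overlapped, and the log2 difference was 0.06 (95% confidence interval -0.18 to 0.30). In the ileum it read 8.01, 8.14 and 8.65 in FIRE +/+ and 8.02, 8.10 and 8.27 in FIRE -/- mice, a difference of -0.14 (95% confidence interval -0.57 to 0.29, limma adjusted p = 0.999). Kcnk1 was thus well above the array medians in both tissues, and of the called channels it had the smallest tissue difference. Hippocampus exceeded ileum by 0.69 in FIRE +/+ (standard error 0.18, limma adjusted p = 0.0109) and by 0.89 in FIRE -/- mice (standard error 0.11, limma adjusted p = 0.000281). The first of these was not called when each cluster was tested without moderation of its variance.

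**Figure D2:**
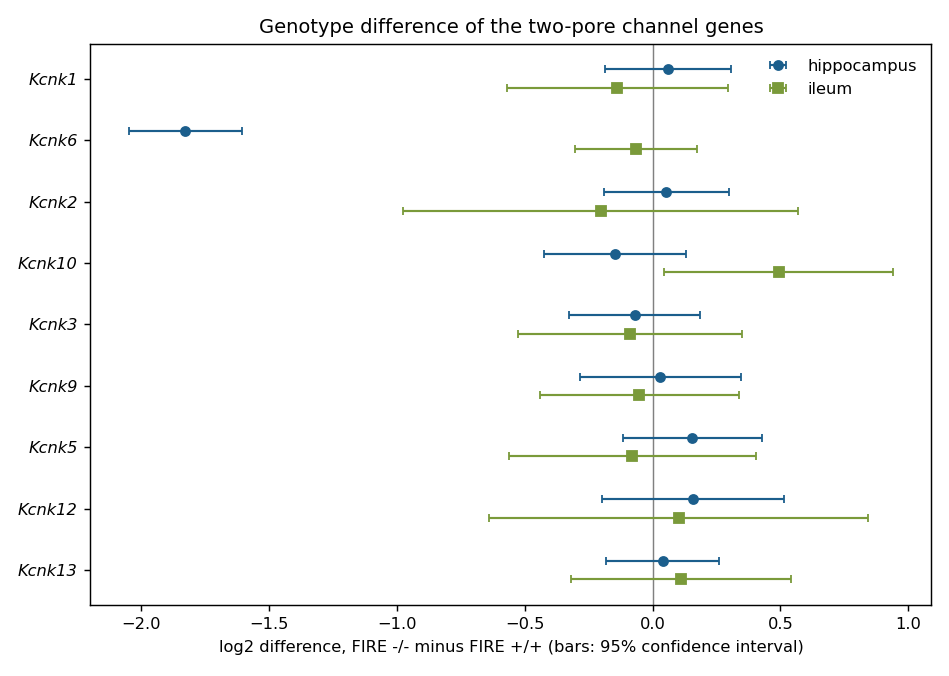
Log2 difference FIRE -/- minus FIRE +/+ (x axis) of each channel gene (y axis) in hippocampus (circles) and ileum (squares), with 95% confidence intervals from limma on 3 against 3 arrays. Kcnk6 in the hippocampus stands at -1.83, and the intervals of the other 8 genes in the hippocampus include 0.

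Kcnk13 did not follow Kcnk6. Kcnk13, the gene of THIK-1, read 5.42, 5.25 and 5.43 in FIRE +/+ hippocampus and 5.51, 5.33 and 5.38 in FIRE -/- hippocampus. Its genotypes overlapped, with a log2 difference of 0.04 (standard error 0.10, 95% confidence interval -0.18 to 0.26). The microglial list had a median log2 difference of -2.73 in the same fit. The Kcnk13 means, 5.37 and 5.41, were above the array medians of 4.29 to 4.46. They were below the 5.60 median of the clusters with 1 gene symbol in the hippocampus, as was the Kcnk6 mean of 5.26 over the hippocampus arrays. The value rests on 1 transcript cluster, and which cells give its signal was not tested. On the 4 hippocampus arrays whose code ends in 07, which hold the 3 FIRE +/+ arrays and 1 FIRE -/- array and were set apart after the data were seen, Kcnk13 differed by 0.01 and Kcnk6 by -1.89.

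In the ileum Kcnk13 read 3.49, 4.19 and 3.88 in FIRE +/+ and 4.06, 3.93 and 3.92 in FIRE -/- mice. These values are near or below the array medians, and the difference was 0.11 (95% confidence interval -0.32 to 0.54, limma adjusted p = 0.999). Hippocampus exceeded ileum by 1.51 in FIRE +/+ (standard error 0.18, limma adjusted p = 0.000173) and by 1.44 in FIRE -/- mice (standard error 0.10, limma adjusted p = 5.76e-06). The part of microglia in this excess over the ileum was not tested.

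Kcnk12 encodes THIK-2, a partner of THIK-1 that is silent or nearly so on its own. It read 7.01, 6.91 and 6.50 in FIRE +/+ hippocampus and 6.97, 7.13 and 6.78 in FIRE -/- hippocampus, an overlap with a difference of 0.16 (95% confidence interval -0.20 to 0.52). In the ileum it read 3.91, 4.93 and 3.71 in FIRE +/+ and 4.46, 4.36 and 4.03 in FIRE -/- mice (difference 0.10, 95% confidence interval -0.64 to 0.84, limma adjusted p = 0.999). The highest ileum value, 4.93, was on array D09, which with F09 stood apart for lymphoid transcript. The mean signal of 10 B cell markers was 7.27 on D09 (FIRE +/+) and 7.42 on F09 (FIRE -/-), and 3.29 to 3.57 on the other 4 ileum arrays. Without both arrays the Kcnk12 difference was 0.39, and the part of lymphoid tissue in it was not tested. The tissue difference of Kcnk12 was 2.62 in FIRE +/+ (standard error 0.31, limma adjusted p = 0.000169) and 2.68 in FIRE -/- mice (standard error 0.15, limma adjusted p = 1.83e-06), higher in hippocampus.

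Of the TREK channels neither gene was called for genotype in the ileum, where limma called 0% of all clusters. Kcnk2 (TREK-1) read 6.67, 6.81 and 6.53 in FIRE +/+ hippocampus and 6.84, 6.69 and 6.64 in FIRE -/- hippocampus, a difference of 0.05 (95% confidence interval -0.19 to 0.30). In the ileum its arrays spread widely, with 4.10, 4.55 and 4.81 in FIRE +/+ and 3.63, 4.87 and 4.35 in FIRE -/- mice, and the difference was -0.20 (95% confidence interval -0.97 to 0.57, limma adjusted p = 0.999). The lowest value, 3.63, was on F09, and without D09 and F09 the difference was 0.16. Kcnk2 was higher in hippocampus than in ileum by 2.18 in FIRE +/+ (standard error 0.19, limma adjusted p = 2.47e-05) and by 2.44 in FIRE -/- mice (standard error 0.28, limma adjusted p = 0.000152).

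Kcnk10 (TREK-2) had the largest ileum difference of the 9 genes, and it did not pass the test. It read 4.25, 3.72 and 4.18 in FIRE +/+ ileum and 4.47, 4.82 and 4.34 in FIRE -/- ileum, so every FIRE -/- array was above every FIRE +/+ array. The log2 difference was 0.49 (standard error 0.19, 95% confidence interval 0.04 to 0.94, limma adjusted p = 0.999). Kcnk10 was the 1 channel of 9 whose ileum genotypes did not overlap, where 8.04% of all clusters did not overlap, and limma called 0 of the 9 channels and 0% of the clusters in the ileum. At an unadjusted p under 0.05, limma had 393 clusters higher and 327 lower there. Without D09 and F09 the Kcnk10 difference was 0.36.

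In the hippocampus Kcnk10 read 6.24, 6.10 and 6.25 in FIRE +/+ and 6.28, 5.88 and 5.99 in FIRE -/- mice, with an overlap and a difference of -0.15 (95% confidence interval -0.43 to 0.13). The genotype differences of Kcnk10 in both tissues were -0.64 apart (95% confidence interval -1.16 to -0.12). This was not called, in a contrast in which limma called 0.0895% of all clusters. Hippocampus exceeded ileum by 2.15 in FIRE +/+ (standard error 0.16, limma adjusted p = 9.40e-06) and by 1.51 in FIRE -/- mice (standard error 0.16, limma adjusted p = 9.36e-05).

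The TASK genes had both the largest and the smallest tissue differences of the set. Kcnk9 (TASK-3), a channel of central neurons, read 7.11, 7.54 and 7.08 in FIRE +/+ hippocampus and 7.24, 7.20 and 7.38 in FIRE -/- hippocampus, an overlap with a difference of 0.03 (95% confidence interval -0.29 to 0.35). In the ileum it was below the array medians on all arrays, at 3.04, 2.59 and 3.19 in FIRE +/+ and 2.88, 2.86 and 2.93 in FIRE -/- mice (difference -0.05, 95% confidence interval -0.44 to 0.34, limma adjusted p = 0.999). Its tissue difference was the largest of the channels higher in hippocampus, at 4.30 in FIRE +/+ (standard error 0.19, limma adjusted p = 5.67e-07) and 4.39 in FIRE -/- mice (standard error 0.09, limma adjusted p = 1.80e-08). At this signal the ileum values say only that the gene was dim there.

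Kcnk5 (TASK-2), a channel known from epithelia of kidney and gut, had the opposite pattern. It read 8.87, 8.45 and 8.24 in FIRE +/+ ileum and 8.52, 8.14 and 8.66 in FIRE -/- ileum, an overlap with a difference of -0.08 (95% confidence interval -0.56 to 0.40, limma adjusted p = 0.999). In the hippocampus it was dim, at 3.58, 3.35 and 3.35 in FIRE +/+ and 3.42, 3.58 and 3.75 in FIRE -/- mice (difference 0.16, 95% confidence interval -0.11 to 0.43). Hippocampus minus ileum was -5.09 in FIRE +/+ (standard error 0.17, limma adjusted p = 1.32e-07) and -4.86 in FIRE -/- mice (standard error 0.16, limma adjusted p = 1.14e-07). Kcnk5 and Kcnk6 were thus the channels higher in the gut, and the genotypes of both overlapped there.

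Kcnk3 (TASK-1) had no genotype call in the ileum, where limma called 0% of all clusters. It read 5.92, 6.22 and 5.96 in FIRE +/+ hippocampus and 5.94, 6.07 and 5.87 in FIRE -/- hippocampus, a difference of -0.07 (95% confidence interval -0.33 to 0.18). In the ileum it read 5.72, 5.95 and 6.22 in FIRE +/+ and 5.59, 6.13 and 5.90 in FIRE -/- mice, a difference of -0.09 (95% confidence interval -0.53 to 0.35, limma adjusted p = 0.999). It was the member without a tissue call, with 0.07 in FIRE +/+ (95% confidence interval -0.30 to 0.44, limma adjusted p = 0.747) and 0.09 in FIRE -/- mice (95% confidence interval -0.26 to 0.43, limma adjusted p = 0.639).

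**Figure D3:**
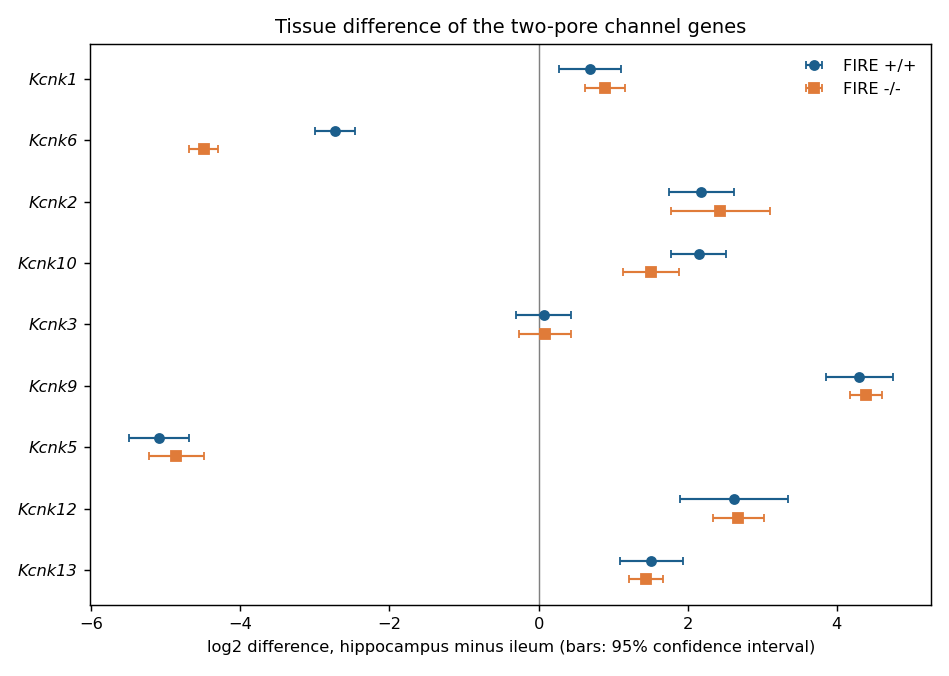
Log2 difference hippocampus minus ileum (x axis) of each channel gene (y axis) in FIRE +/+ (circles) and FIRE -/- mice (squares), with 95% confidence intervals from limma. Kcnk5 and Kcnk6 lie below 0, the intervals of Kcnk3 include 0, and Kcnk6 is at -2.73 in FIRE +/+ and -4.49 in FIRE -/- mice.

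Counted over the set, 8 of 9 channels were called between the tissues in FIRE +/+ mice, 6 higher and 2 lower in hippocampus, and the same calls were made in FIRE -/- mice. The background of these comparisons was high. Limma called 56.5% of all clusters in FIRE +/+ mice (27.1% higher, 29.4% lower) and 61.7% in FIRE -/- mice (29.7% higher, 32% lower). The groups did not overlap for 8 of 9 channels in each genotype, against 64% and 68.8% of all clusters. In FIRE +/+ mice the hippocampus arrays have codes ending in 07 and the ileum arrays codes ending in 09, so this series of arrays and the tissue cannot be told apart there. In FIRE -/- mice the differences on the arrays ending in 09 alone ran from -4.94 for Kcnk5 to 4.33 for Kcnk9, with the same 8 genes called in the same directions.

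Of the 5 two-pore genes outside the set none was called for genotype in either tissue. Limma called 0.448% of all clusters in the hippocampus and 0% in the ileum, so the lack of a call is near the background. The hippocampus differences were -0.22 to 0.03. Kcnk4 (TRAAK), a mechanically gated relative of the TREK channels, read 7.12, 6.996 and 6.89 in FIRE +/+ and 7.05, 6.96 and 7.09 in FIRE -/- hippocampus. It was higher in hippocampus than in ileum by 2.98 in FIRE +/+ (limma adjusted p = 4.51e-06) and 3.47 in FIRE -/- mice (limma adjusted p = 2.18e-07). Kcnk7, Kcnk15, Kcnk16 and Kcnk18 were dim on all arrays and had no tissue call. Limma called 56.5% of all clusters between tissues in FIRE +/+ and 61.7% in FIRE -/- mice.

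The other potassium channels of the hippocampus had no genotype call, in a contrast in which 0.448% of all clusters were called, so that counts of 0 are near the background. Of 34 measured voltage-gated subunits 0 were called, with differences from -0.33 (Kcnh4) to 0.28 (Kcnf1) and a median of 0.02. Of 8 calcium- and sodium-activated subunits 0 were called, among them Kcnn4, the KCa3.1 channel also studied in microglia, at 0.38 (95% confidence interval -0.18 to 0.93). Of 15 inward rectifier subunits 0 were called, and the widest was Kcnj13 at 1.11 (95% confidence interval -0.90 to 3.11). Kcnj13 was at 6.41 on 1 FIRE +/+ array and between 9.14 and 10.30 on the other 5. The median over all 21218 clusters was 0.01. In the ileum 0 genes of these lists and 0% of all clusters were called.

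Between tissues most genes of these lists were higher in hippocampus, where limma called 27.1% of all clusters higher and 29.4% lower in FIRE +/+ mice. In these mice 28 of 34 voltage-gated subunits were called higher and 1, Kcnq1, called lower, at -5.06 (limma adjusted p = 2.28e-08), the subunit of epithelial and cardiac potassium current. Of the 15 inward rectifiers 9 were called higher and 1 lower. Of the 8 calcium- and sodium-activated subunits 6 were called higher and 1, Kcnn4, called lower, at -4.61 (limma adjusted p = 1.80e-06). Their median log2 differences were 2.72, 1.99 and 1.80, where that of all clusters was -0.03. In FIRE -/- mice, with 29.7% of all clusters higher and 32% lower, the counts were 28 higher and 1 lower, 9 higher and 2 lower, and 6 higher and 1 lower. The medians there were 2.66, 1.01 and 1.95, beside -0.07 for all clusters.

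**Figure D4:**
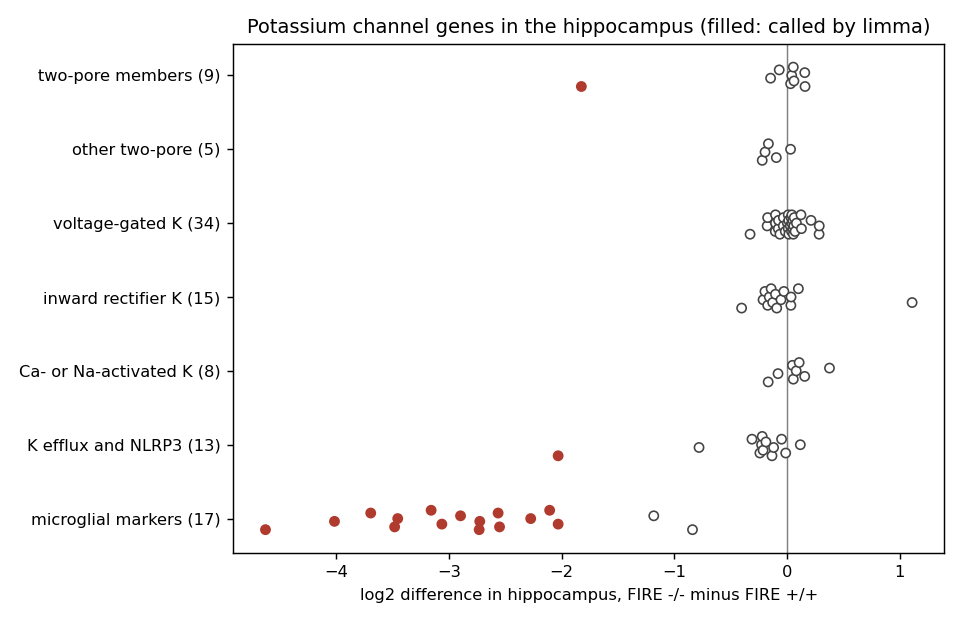
Log2 difference FIRE -/- minus FIRE +/+ in the hippocampus (x axis) of each gene of 7 lists (y axis, number measured in brackets); filled red points were called by limma and open points were not. Kcnk6 is the 1 filled point among the potassium channels, and since it was chosen for this contrast its fill is not a test. P2ry12 is the filled point of the efflux list, and 15 of 17 microglial markers are filled.

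Of 13 genes that act with potassium efflux and the NLRP3 inflammasome, limma called 1 lower in FIRE -/- hippocampus. It was P2ry12, the ADP receptor of microglia, which also stands in the microglial list. P2ry12 read 5.89, 5.46 and 5.46 in FIRE +/+ and 3.59, 3.62 and 3.50 in FIRE -/- hippocampus, with no overlap, a log2 difference of -2.03 (standard error 0.13) and a limma adjusted p of 0.000321. It was not called without moderation of the variance or on the arrays ending in 07 alone. The 1 call of 13 stands beside 0.448% of all clusters, and 3 of the 13 had genotypes that did not overlap, beside 9.66% of all clusters.

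P2rx7, the ATP-gated channel that opens the efflux pathway, read 5.95, 6.06 and 5.98 in FIRE +/+ and 5.63, 5.79 and 5.63 in FIRE -/- hippocampus. Its genotypes did not overlap, yet its difference of -0.31 (standard error 0.09, limma adjusted p = 0.604) was not called, nor was that of the cytokine gene Il1a at -0.78 (standard error 0.18, limma adjusted p = 0.302). Nlrp3, the sensor itself, was at -0.21 (95% confidence interval -0.49 to 0.06), Casp1 at -0.22 and Pycard, the adaptor, at -0.19, with overlap for each. The list's median was -0.21. In the ileum 0 of the 13 were called, with differences from -0.27 for P2ry12 to 0.63 for Il18.

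The genes whose profile over the 12 arrays was nearest to that of Kcnk6 were Gmfg, Irf8, Dock8, Ccl9 and Tnfrsf11a. Likeness was the root mean square difference of log2 signals after each gene was centred on its own mean, and it was 0.421 for Gmfg and 0.464 for Tnfrsf11a. Gmfg encodes an actin regulator of haematopoietic cells, Irf8 a transcription factor of the myeloid and B cell lineages, and Dock8 an activator of Cdc42 in leukocytes. Ccl9, a chemokine gene, and Tnfrsf11a, which encodes the receptor RANK, are expressed by myeloid cells and also known from the microfold cells of the epithelium over Peyer's patches. Irf8 averaged 5.61 in FIRE +/+ hippocampus, 3.96 in FIRE -/- hippocampus, 9.19 in FIRE +/+ ileum and 9.24 in FIRE -/- ileum. In FIRE +/+ and FIRE -/- hippocampus Gmfg averaged 5.61 and 4.17, Dock8 4.86 and 3.98, Ccl9 4.13 and 3.28, and Tnfrsf11a 4.525 and 3.89. Each of these genes fell by less than Kcnk6, which averaged 6.17 and 4.34. The list was drawn from the same arrays as the Kcnk6 values and is a description with no test. The genes nearest to Kcnk13 were Zfp128, Mcrip1, Abcb4, Wdr34 and Tacc1, with root mean square differences of 0.106 to 0.132, and Zfp128 averaged 6.06 and 6.01 in FIRE +/+ and FIRE -/- hippocampus and 4.58 and 4.58 in the ileum.

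**Figure D5:**
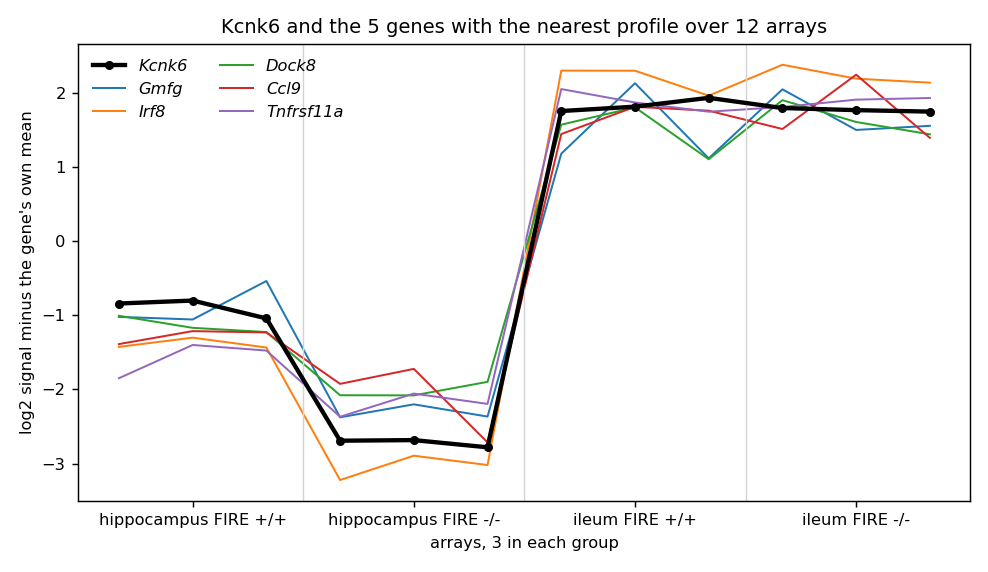
Log2 signal minus each gene's own mean (y axis) on the 12 arrays (x axis, 3 in each group) for Kcnk6 (black) and the 5 genes of nearest profile (colours). Kcnk6 and these genes are lowest on the FIRE -/- hippocampus arrays and highest in both ileum groups.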

How the data were processed

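Total RNA of hippocampus and of ileal Peyer's patches with surrounding mucosa was hybridised to 12 Affymetrix Mouse Gene ST arrays, 3 per group. The authors deposited log2 values made by robust multi-array averaging (RMA) in R, with no version given in the sources used here. The methods name the 1.0 ST design, while the platform annotation used for symbols is of a later GEO release. Of 35556 clusters, 21218 have 1 symbol (18820 genes) and were tested, 1881 have several and 12457 none.

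The contrasts (genotype in each tissue, tissue in each genotype) were fitted on 6 arrays each, and the difference of genotype effects on all 12, with limma 3.58.1 (lmFit, eBayes) in R 4.3.3, Benjamini-Hochberg adjustment over 21218 clusters and a threshold of 0.05. The fits were tested on simulated data. Members and lists were chosen with earlier results of these data known. Labels give no replicate numbers. They do not state separate litters or extractions, so p-values measure the spread between these arrays. Tests were two-sided. Named genes are all 9 members, the 5 other two-pore genes and the 5 nearest profiles of Kcnk6 and Kcnk13. Of the lists, members called or with up to 4 of the largest differences are named. Further genes (the neighbours of Kcnk6, Casp1, Pycard, Kcnn4, Nlrp3 and Uty) were named for their role or place. Of 14 lists, marker lists of 9 cell types served as checks, counted by limma calls in FIRE +/+ mice. Hippocampus was called above ileum for 9 of 9 neuron, 7 of 7 astrocyte and 4 of 4 oligodendrocyte markers. It was called below for 9 of 10 enterocyte, 6 of 6 smooth muscle, 3 of 6 T cell and 0 of 10 B cell markers. The B cell differences, from -2.85 to -1.11, were lower without a call. Of 17 microglial markers 8 were called higher and 2 lower, and of 11 intestinal macrophage markers 3 higher and 6 lower. Over all clusters 27.1% were called higher and 29.4% lower.

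Alternatives were trend with robust shrinkage, no moderation, a filter on dim clusters, a second quantile normalization, all clusters, sex as labelled, a fit of all 12 arrays, the array code as a block, arrays D09 and F09 left out, and each array left out. In the fit with sex, B09 entered as female by its label, against its sex-linked transcripts. Member promoters came from RefSeq GRCm38.p6, an assembly the authors do not name.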

Additional observations from a re-analysis of the deposited data

Results flagged for a closer look

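The genotype difference of Kcnk6 was not the same in both tissues. In the hippocampus minus that in the ileum it was -1.76 on the log2 scale (standard error 0.13, 95% confidence interval -2.05 to -1.48) in the interaction term of limma over 12 arrays, and it lay between -1.84 and -1.67 in all 19 alternatives run. All 3 FIRE -/- hippocampus arrays were below all 3 FIRE +/+ arrays, and the ileum arrays overlapped. The hippocampus part of this contrast is that for which the gene was chosen, so these values are a description and not a test.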

How the results depend on the processing

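In the hippocampus, the contrast for which Kcnk6 was chosen, its log2 difference was -1.90 to -1.74 in the 14 alternatives that hold it, given as a description. The block by array code and the arrays ending in 07 rest on H07 as the single FIRE -/- array. Among the 6 members above the median of the clusters with 1 symbol (5.60) 0 were called. Kcnk6, with a mean of 5.26 over the hippocampus arrays, is removed by that filter. Kcnk13, with group means of 5.37 and 5.41 there, is removed as well. With that filter 3 of 4 members left were called between tissues in FIRE +/+ and 3 of 4 in FIRE -/- mice, and 17 clusters were called in the hippocampus and 8541 between tissues in FIRE -/- mice, with fewer clusters tested. Clusters called in the hippocampus, 95, became 25 without moderation, 41 in the fit of all 12 arrays and 34 on arrays ending in 07. For the difference of genotype effects, 19 became 8 without moderation and 65 without D09 and F09, and 12 to 41 with 1 array left out (12 without E07 or B09, 41 without D09). The cause was not tested. Of the member values in the alternatives, 16 of 166 changed sign for the difference of genotype effects, 15 of 132 for hippocampus, 12 of 121 for ileum, 2 of 112 for tissue in FIRE +/+ and 1 of 121 in FIRE -/-, each of a difference that was not called.

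With the array code as a replicate block, as on arrays ending in 07, the hippocampus differences were -0.010 for Kcnk1, -0.033 for Kcnk2 and -0.021 for Kcnk12. Without D09 and F09 the ileum differences were 0.16 for Kcnk2 and 0.048 for Kcnk3, and the differences of genotype effects -0.10 for Kcnk2, -0.12 for Kcnk3 and -0.23 for Kcnk12. With quantile normalization again that of Kcnk3 was -0.0022. With 1 array left out, hippocampus differences ran from -0.023 to 0.11 for Kcnk1, -0.018 to 0.12 for Kcnk2, -0.13 to 0.021 for Kcnk3, -0.052 to 0.18 for Kcnk9 and -0.018 to 0.079 for Kcnk13. Ileum differences ran from -0.27 to 0.054 for Kcnk1, -0.50 to 0.13 for Kcnk2, -0.22 to 0.052 for Kcnk3, -0.22 to 0.096 for Kcnk5, -0.23 to 0.073 for Kcnk9, -0.13 to 0.47 for Kcnk12 and -0.070 to 0.28 for Kcnk13. Tissue differences of Kcnk3 ran from -0.054 to 0.20 in FIRE +/+ and -0.054 to 0.22 in FIRE -/- mice. Differences of genotype effects ran from -0.071 to 0.55 for Kcnk2, -0.12 to 0.15 for Kcnk3, -0.043 to 0.26 for Kcnk9, -0.32 to 0.29 for Kcnk12 and -0.24 to 0.11 for Kcnk13. No paired analysis was possible because the labels give no replicate numbers. Other clusters of a member could not be tried, as each has 1.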
